A study of Mus musculus with 16 samples.

Results

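The histone deacetylase family was followed here through 10 genes, namely Hdac1, Hdac2, Hdac3, Hdac4, Hdac5, Hdac6, Hdac7, Hdac8, Hdac9 and Hdac11. They were chosen by symbol, as the rows of the deposited count table whose Ensembl identifier carries 1 of these names, and are 10 of its 53801 genes. Hdac10, the remaining zinc-dependent deacetylase, was not among the chosen symbols and was counted with the sirtuins as a related gene. Bulk RNA was sequenced from forebrain tissue of mice at 10 days of age, of the strain C57BL6/J-129sv, and the question of the comparison is how gene expression differs when Trrap is deleted in forebrain neurons. Control mice were Trrap Fl/+; Camk2-Cre tg and mutant mice, called Trrap-FBΔ, were Trrap Fl/Fl; Camk2-Cre tg, so that both genotypes carry the Cre transgene and the controls also carry 1 floxed allele. The Camk2a promoter drives Cre in forebrain excitatory neurons, whereas the libraries hold RNA of every cell type of the dissected tissue. There were 4 libraries each of control cortex (mice 55, 58, 63 and 64), control striatum (mice 58, 63, 64 and 65), Trrap-FBΔ cortex and Trrap-FBΔ striatum (both from mice 57, 59, 60 and 61), 16 libraries from 9 mice in all. The sexes were not balanced, with 3 of 4 libraries female in either Trrap-FBΔ tissue, 2 of 4 in control cortex and 1 of 4 in control striatum. The libraries hold between 28743866 and 48761429 counted reads, and the lowest count of any member in any library was 159, for Hdac1.

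Histone deacetylases remove acetyl groups from lysines of histone tails and of other proteins, and so oppose the acetyltransferases, of which Trrap is a scaffold subunit. The class I enzymes are mainly nuclear: Hdac1 and Hdac2 are the catalytic subunits of the Sin3, NuRD, CoREST and MiDAC corepressor complexes, Hdac3 is that of the NCoR and SMRT complexes, and Hdac8 deacetylates the cohesin subunit Smc3. The class IIa proteins Hdac4, Hdac5, Hdac7 and Hdac9 have little deacetylase activity of their own. They bind and repress Mef2 transcription factors, and are exported from the nucleus when kinases of the CaMK, PKD and SIK families phosphorylate them and 14-3-3 proteins bind. Hdac6, of class IIb, is a cytoplasmic enzyme that deacetylates alpha-tubulin, and Hdac11, the class IV member, removes long fatty acyl groups from lysines and is abundant in brain.

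On GRCm38, the class I genes lie at chr4:129516104-129542713 (Hdac1, minus strand), chr10:36974544-37001889 (Hdac2, plus strand), chr18:37935844-37955016 (Hdac3, minus strand) and chrX:102284639-102505359 (Hdac8, minus strand). The class IIa genes, all on the minus strand, lie at chr1:91928779-92195699 (Hdac4), chr11:102194432-102230166 (Hdac5), chr15:97792664-97844502 (Hdac7) and chr12:34047580-34917095 (Hdac9). Hdac6 lies at chrX:7930120-7947889 on the minus strand and Hdac11 at chr6:91156665-91174692 on the plus strand. All are annotated as protein-coding. The counts of Hdac1 are uncertain, because 1162 of the 1988 stretches of 51 bases, the read length, in its longest transcript (58.45%) also occur in annotated processed pseudogenes, chiefly Gm10093. No such stretch of the other 9 members occurred in another annotated gene. Hdac7 overlaps Slc48a1 on the opposite strand, Hdac8 overlaps Gm14858 and Hdac11 overlaps Gm14573 and Gm44002 in the same manner, and the reads were counted by strand. On their own strand, where this does not tell reads apart, Hdac4 overlaps Gm37036, Hdac5 overlaps Mir8101, and Hdac9 overlaps Gm18025, Gm47357 and 4921508M14Rik.

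Trrap itself, counted over the whole gene, did not separate the groups. Its level in CPM, the count scaled by the library's total and the TMM factor, ran from 136 to 173 in control cortex and from 121 to 146 in Trrap-FBΔ cortex (log2 fold change -0.18, edgeR adjusted p = 0.0826). It passed 0.05 without control mouse 63 (adjusted p = 0.0336), with all 16 libraries in 1 fit and with no filter on low counts, and its adjusted p ran up to 0.207 over 16 alternatives. In the striatum it ran from 140.0 to 151 CPM and from 135 to 148 CPM (log2 fold change -0.04, adjusted p = 0.519). The counts over the whole gene therefore give no check of the genotype labels. The sexes on the labels matched Xist and Y-linked counts in 16 of 16 libraries.

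The tissue label was checked against marker genes, and the markers of striatal projection neurons did not separate the libraries labelled striatum from those labelled cortex. None of the 8, among them Drd1, Drd2, Adora2a and Ppp1r1b, passed the main edgeR test between the tissues in controls or in Trrap-FBΔ mice, 0 and 1 had an unadjusted p under 0.05, and DESeq2 called 0 in either genotype. Over the alternatives, up to 2 were called higher and up to 1 lower in the striatum of controls. In Trrap-FBΔ mice up to 1 was called in either direction. Ppp1r1b, which encodes the dopamine-regulated phosphoprotein of these neurons, ran from 51.8 to 185 CPM in control cortex and from 19.4 to 300 CPM in control striatum. The 8 markers summed to between 266 CPM (mouse 58) and 1434 CPM (mouse 64) in control striatum and to between 352 and 954 CPM in control cortex. The log2 fold changes of the 8, striatum over cortex, ran from -0.38 to 0.79 in controls and from -0.82 to 0.89 in mutants. By contrast 7 of 7 markers of excitatory cortical neurons were lower in the striatum in both genotypes, and 8 of 8 markers of mature oligodendrocytes were higher. Of 7 inhibitory interneuron markers, Gad1, Gad2 and Pvalb were higher there in both genotypes, whereas 2 were lower in controls and 3 in mutants. The word striatum is therefore used below for the libraries that carry this label, and differences between the tissues are differences between libraries of 2 labels. In bulk tissue, fewer cells of a type and less RNA per cell cannot be told apart.

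The starts of Hdac4, Hdac6 and Hdac11 are shown because the study turns on Sp1, a factor that binds GC boxes. Hdac6 fell and Hdac11 rose with the genotype in the cortex, and Hdac4 and Hdac11 differed between the tissues in opposite directions. RefSeq windows of 250 bases before to 50 bases after each start (GRCm38.p6) were searched for GGGCGG and its reverse complement CCGCCC. They are written on the strand of the gene with the matches in capitals, and Hdac4 (chr1:92180292-92180591, minus strand, a start within the span that Ensembl gives the gene) and Hdac6 (chrX:7947840-7948139, minus strand) held 5 matches each, against 1 in Hdac11 (chr6:91156565-91156864, plus strand).
Hdac4: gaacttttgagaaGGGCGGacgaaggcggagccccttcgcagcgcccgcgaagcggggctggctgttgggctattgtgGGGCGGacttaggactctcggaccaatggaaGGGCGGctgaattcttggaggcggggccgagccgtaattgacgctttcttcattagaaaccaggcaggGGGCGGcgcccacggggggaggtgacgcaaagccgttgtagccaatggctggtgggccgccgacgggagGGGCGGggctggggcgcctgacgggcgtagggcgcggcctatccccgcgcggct
Hdac6: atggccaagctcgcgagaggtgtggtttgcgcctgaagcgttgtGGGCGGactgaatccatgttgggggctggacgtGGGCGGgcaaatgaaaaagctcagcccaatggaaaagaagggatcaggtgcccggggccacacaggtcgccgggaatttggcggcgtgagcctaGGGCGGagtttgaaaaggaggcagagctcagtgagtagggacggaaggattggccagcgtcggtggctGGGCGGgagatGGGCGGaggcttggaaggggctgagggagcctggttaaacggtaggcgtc
Hdac11: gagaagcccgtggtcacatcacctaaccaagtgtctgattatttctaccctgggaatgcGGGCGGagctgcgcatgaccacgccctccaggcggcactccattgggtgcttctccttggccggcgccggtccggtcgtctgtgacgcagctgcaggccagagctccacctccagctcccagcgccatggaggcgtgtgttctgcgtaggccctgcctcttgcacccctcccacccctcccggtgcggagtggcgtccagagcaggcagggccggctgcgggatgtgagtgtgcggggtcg

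Of the 8 members with an entry, 6 had at least 1 start with a match (6 of 12 starts), among them Hdac2, Hdac5 and Hdac7, whereas the windows of Hdac8 and Hdac9 held none. Hdac2, Hdac5 and 1 start of Hdac7 held 1 match each, as Hdac11 did. Hdac9, without a match, was called lower in Trrap-FBΔ striatum and lower in the striatum than in the cortex. A link between matches and the direction of a change was not tested. A match was found in 35.7% of all 32851 RefSeq starts. The starts of Hdac1 and Hdac3 were not analysed here.

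The level per length separated the family into genes of very different abundance. TPM values, in which counts are divided by the merged exon length of the gene and scaled to the same sum in every library, were computed for this. In control cortex Hdac2 (130 ± 4.13 TPM, SD, n = 4, from 127 to 135) and Hdac11 (from 124 to 134) led and overlapped, followed by Hdac3 (from 102 to 109). Hdac5 (51.1 TPM) and Hdac6 (49.8 TPM) came next and overlapped. Hdac7 (22.6 TPM), Hdac9 (19.3 TPM), Hdac4 (17.3 TPM), Hdac8 (9.02 TPM) and Hdac1 (6.43 TPM) followed, with no overlap between neighbours. The order was not the same in the striatum, where Hdac11 led alone with a mean of 247 TPM in controls and 308 TPM in Trrap-FBΔ mice. Hdac2 and Hdac3 overlapped in control striatum (127 and 120 TPM) and in Trrap-FBΔ cortex (132 and 124 TPM), while in Trrap-FBΔ striatum all 4 libraries had more Hdac3 (from 148 to 154 TPM) than Hdac2 (from 133 to 137 TPM). This order turned with the length of the longest transcript, which gave means of 135 TPM for Hdac3 and 148 TPM for Hdac2. Hdac1 had the lowest value in every group, but reads from the stretches it shares with pseudogenes are not uniquely mapped, so that its value is too low by an amount not measured here and its place beside Hdac8 is not settled. With the length of the longest transcript in place of merged exons, only 5 of the 10 ranks in control cortex were kept, so that the order of close neighbours depends on the gene model.

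**Figure D1:**
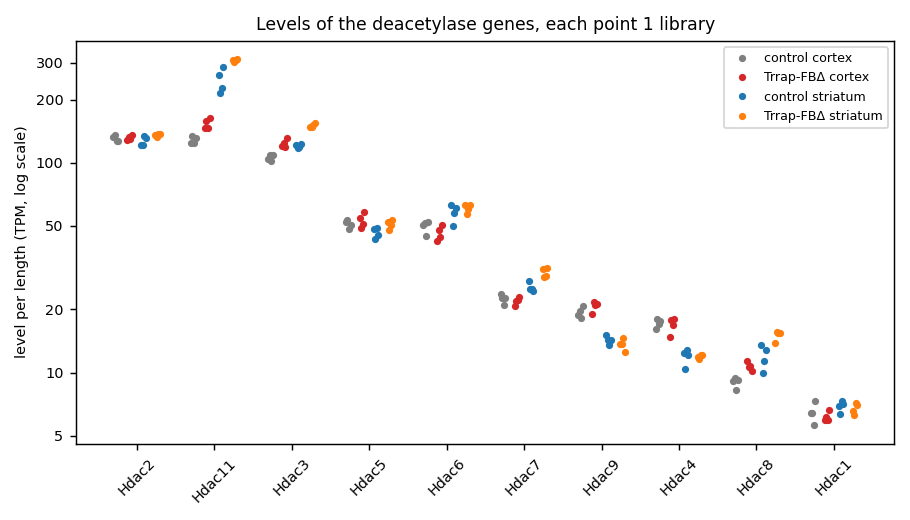
Level per length of the 10 deacetylase genes in TPM (vertical axis, log scale), each point 1 library and each colour 1 of the 4 groups, with genes ordered by their mean in control cortex. Hdac11 stands above Hdac2 in the striatum of both genotypes (means of 247 and 308 TPM), and Hdac8 and Hdac1 have the lowest values in control cortex (9.02 and 6.43 TPM), that of Hdac1 being uncertain.

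As a share of the summed TPM of the 10 genes, Hdac11 made up 23.8% ± 0.5 (SD, n = 4) in control cortex, 26.2% ± 0.4 in Trrap-FBΔ cortex, 36.9% ± 2.5 in control striatum and 39.3% ± 0.2 in Trrap-FBΔ striatum. Hdac2 and Hdac3 together with Hdac11 hold most of the family's messages, at 24.2%, 19.6% and 23.8% in control cortex. The sum itself was 540.0 ± 18.5 TPM in control cortex, 585 ± 24.3 in Trrap-FBΔ cortex, 669 ± 44.4 in control striatum and 783 ± 14.4 in Trrap-FBΔ striatum. The TMM factor is not applied to TPM, so the sums are no comparison of the genotypes, and their difference was not tested. In the striatum the mean of Hdac2 was 127 TPM in controls and 136 TPM in mutants. In CPM it was 149.1 and 146.3, the opposite direction. The shares include Hdac1, with the uncertainty given above, at 1.19% in control cortex.

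In the cortex of Trrap-FBΔ mice, Hdac3 and Hdac11 were higher and Hdac6 was lower than in controls, and the other 7 members did not pass the test. All 10 members passed the filter on low counts. The 3 of 10 called are close to the background, since 33.3% of the 18268 genes tested were called in this comparison (15.7% higher and 17.6% lower). In the striatum Hdac3 was higher and Hdac9 was lower, 2 of 10 against a background of 30.2% of 18872 genes (14.4% higher and 15.8% lower). Each was tested by edgeR's quasi-likelihood test on 4 against 4 libraries with Benjamini-Hochberg adjustment over all genes. At an unadjusted p under 0.05, 5 members were counted in each tissue. The same threshold was met by 8039 of 18268 genes for cortex, beside 7910 of 18872 for striatum. The changes were small: the median absolute log2 fold change of the members was 0.13 (cortex) and 0.14 (striatum), beside 0.19 over all genes tested in either tissue. The members' own median log2 fold change was -0.04 (cortex) and -0.01 (striatum), beside 0.00 and -0.01 over all genes.

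Hdac3, the catalytic subunit of the NCoR and SMRT complexes, was the member called in both tissues. Its 4 control cortex libraries (mice 55, 58, 63 and 64) held 112, 118, 113 and 118 CPM, and the Trrap-FBΔ ones (mice 57, 59, 60 and 61) held 128, 128, 122 and 131 CPM. Every Trrap-FBΔ library was above every control, with a log2 fold change of 0.14 (SE 0.04, adjusted p = 0.0176). In the striatum the controls (mice 58, 63, 64 and 65) held 129, 132, 124 and 127 CPM and the Trrap-FBΔ libraries 146, 147, 145 and 150.0 CPM. The groups again did not overlap, and the log2 fold change was 0.20 (SE 0.04, adjusted p = 0.0041). The cortical call was not kept with no filter on low counts (adjusted p = 0.06, over 16 alternatives from 0.0056 to 0.06), a setting that tests more genes.

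Hdac8, the other class I gene with a positive estimate, is among the least abundant members. It held 11.7, 12.2, 10.99 and 12.0 CPM in control cortex and 14.4, 13.0, 13.1 and 12.2 CPM in Trrap-FBΔ cortex, where the lowest mutant library fell just under the highest control. The estimate was 0.17 (95% interval from 0.01 to 0.32, adjusted p = 0.0878). In the striatum the controls spread from 13.3 to 17.1 CPM and the mutants from 16.2 to 18.4 CPM, with an estimate of 0.22 (0.03 to 0.41, adjusted p = 0.0763). Without control mouse 58, the highest striatal control, it was 0.28 (adjusted p = 0.0273), and it also passed with upper-quartile normalization and with all 16 libraries in 1 fit (adjusted p over 16 alternatives from 0.0273 to 0.164).

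Hdac2 and Hdac1 did not pass the test in either tissue. Hdac2 held 156, 162, 155 and 153 CPM in control cortex and 151, 150, 148 and 151 CPM in Trrap-FBΔ cortex. Every mutant library was below every control, with a log2 fold change of -0.06 (95% interval from -0.15 to 0.02, adjusted p = 0.212). Hdac2 was 1 of 4 members whose cortical groups did not overlap, with Hdac3, Hdac7 and Hdac11, where 32.7% of all genes did not. In the striatum its estimate was -0.03 (-0.12 to 0.06). Hdac1 ran from 5.30 to 6.75 CPM in control cortex and from 5.20 to 5.67 CPM in Trrap-FBΔ cortex (-0.14, interval from -0.34 to 0.06). In the striatum it ran from 6.05 to 6.52 CPM in controls and from 5.28 to 5.89 CPM in mutants without overlap (-0.16, from -0.32 to 0.01, adjusted p = 0.147). The other members whose groups did not overlap in the striatum were Hdac3, Hdac9 and Hdac11, 4 of 10 beside 31.6% of all genes.

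**Figure D2:**
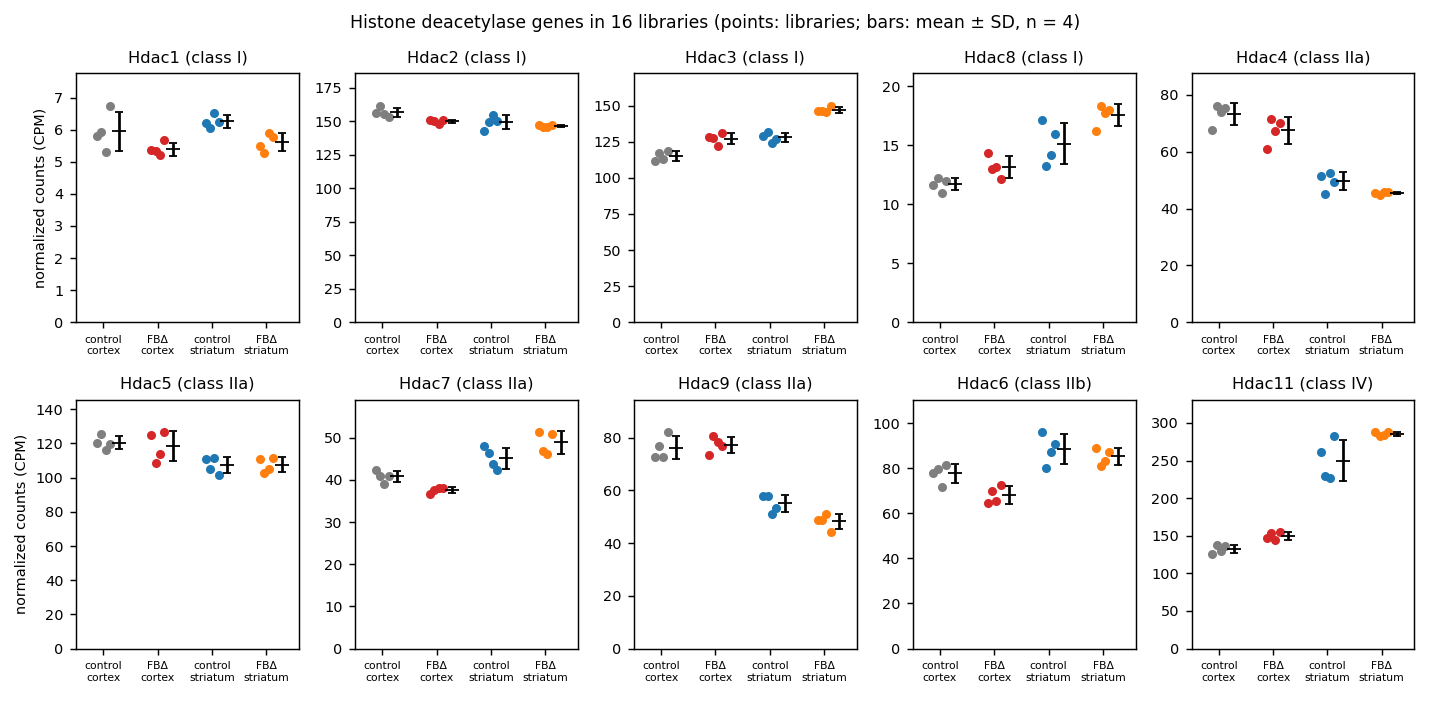
Normalized counts in CPM (vertical axis, from 0) of each deacetylase gene in the 16 libraries, grouped by genotype and tissue, with points for single libraries and black bars for the mean ± SD of the 4 libraries. Hdac3 is higher in Trrap-FBΔ than in control libraries of both tissues, and Hdac11 is between 227 and 288 CPM in the striatum and between 126 and 155 CPM in the cortex.

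Among the class IIa genes, Hdac9 was lower in Trrap-FBΔ striatum and none passed the test in the cortex. Hdac9 held 57.7, 57.7, 51.2 and 53.4 CPM in control striatum and 48.9, 48.8, 51.03 and 44.1 CPM in Trrap-FBΔ striatum. The groups did not overlap, but the highest mutant and the lowest control lay close together, and the log2 fold change was -0.19 (SE 0.06, adjusted p = 0.0375). The call was not kept without control mouse 58 (adjusted p = 0.0852) or 63 (0.0693), nor without Trrap-FBΔ mouse 57 (0.073), 59 (0.0718) or 61 (0.0969). It was also lost with sex as a covariate (0.0915), with upper-quartile normalization and with no filter, and the adjusted p ran from 0.0156 to 0.0969 over 16 alternatives. In the cortex Hdac9 ran from 72.8 to 82.1 CPM in controls and from 73.3 to 80.4 CPM in mutants, an estimate of 0.02 (95% interval from -0.09 to 0.13).

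Hdac4, which in neurons is known to be held mainly in the cytoplasm, had negative estimates of like size in both tissues. In control cortex it held 67.5, 76.2, 74.1 and 75.3 CPM, and in Trrap-FBΔ cortex 60.99, 71.4, 67.3 and 70.1 CPM. The groups overlapped through control mouse 55, and the estimate was -0.12 (95% interval from -0.25 to 0.01, adjusted p = 0.128). In the striatum the mutants held 45.4, 44.8, 45.8 and 45.9 CPM and the controls 51.4, 45.3, 52.6 and 49.2 CPM (-0.13, from -0.24 to -0.01, adjusted p = 0.101). Without control mouse 63, the lowest of these controls, the estimate was -0.17 (adjusted p = 0.0167, over 16 alternatives from 0.0167 to 0.358).

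Hdac5 and Hdac7 complete the class. Hdac7 held 42.3, 41.0, 39.0 and 41.0 CPM in control cortex and 36.6, 37.6, 38.1 and 38.1 CPM in Trrap-FBΔ cortex, where every mutant library was lower (-0.12, 95% interval from -0.23 to -0.02, adjusted p = 0.0743). In the striatum its controls held 48.0, 46.4, 43.9 and 42.3 CPM and its mutants 51.4, 47.0, 46.3 and 50.95 CPM, an estimate of the other sign (0.12, from -0.01 to 0.24, adjusted p = 0.158). Hdac5 ran from 116 to 125 CPM in control cortex and from 109 to 127 CPM in Trrap-FBΔ cortex (-0.02, from -0.14 to 0.10). In the striatum it ran from 101 to 111 CPM and from 103 to 112 CPM (0.01, from -0.10 to 0.11).

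Hdac6, the tubulin deacetylase, was lower in Trrap-FBΔ cortex. The controls held 77.8, 79.9, 71.7 and 81.4 CPM and the mutants 64.5, 70.0, 65.4 and 72.5 CPM, with an overlap of the lowest control (mouse 63) and the highest mutant (mouse 61). The log2 fold change was -0.19 (SE 0.05, adjusted p = 0.0178). The call was not kept without control mouse 64 (-0.17, adjusted p = 0.0528), Trrap-FBΔ mouse 57 (-0.16, 0.0502) or Trrap-FBΔ mouse 60 (-0.17, 0.0713), and the adjusted p ran from 0.0091 to 0.0713 over 16 alternatives. In the striatum the controls held 96.1, 80.3, 87.0 and 90.7 CPM and the mutants 89.2, 81.1, 83.3 and 87.4 CPM. The mutants lay within the range of the controls there (-0.05, 95% interval from -0.19 to 0.08, adjusted p = 0.522).

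Hdac11, the class IV gene, was higher in Trrap-FBΔ cortex. Its controls held 126, 138, 130 and 136 CPM and its mutants 147, 153, 144 and 155 CPM, with no overlap and a log2 fold change of 0.18 (SE 0.04, adjusted p = 0.0104). In the striatum the controls spread widely, at 262, 229, 227 and 282 CPM, whereas the mutants held 288, 283, 284 and 288 CPM. All mutants were above all controls by a narrow margin, and the estimate of 0.19 (95% interval from 0.04 to 0.35) did not pass the test (adjusted p = 0.0625). It passed without control mouse 65, the highest control (0.25, adjusted p = 0.015), with DESeq2 (0.0452), with upper-quartile normalization (0.0355) and with all 16 libraries in 1 fit (0.0205), and the adjusted p ran from 0.015 to 0.145 over 16 alternatives.

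**Figure D3:**
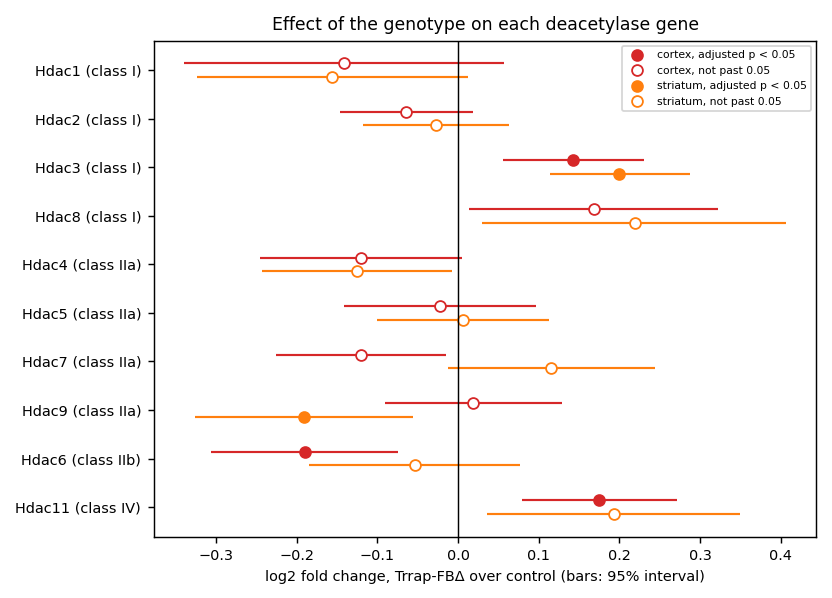
Log2 fold change of Trrap-FBΔ over control for each deacetylase gene (horizontal axis) with its 95% interval, in the cortex (red) and the striatum (orange), with filled points for an adjusted p under 0.05. Hdac3 has filled points in both tissues (0.14 and 0.20), Hdac6 and Hdac11 in the cortex (-0.19 and 0.18) and Hdac9 in the striatum (-0.19).

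The genotype effect was not found to differ between the tissues for any member. In a fit of all 16 libraries, 0 of 10 interaction terms passed an adjusted p of 0.05 in edgeR, beside 0.437% of 19438 genes. With DESeq2 0 of 10 passed, beside 2.48% of 16763 genes. At an unadjusted p under 0.05 in edgeR, 2 members were counted, beside 2347 of the 19438 genes. With the mouse as a replicate block, the calls were again 0. The largest difference was that of Hdac7, whose estimate in the striatum exceeded that in the cortex by 0.24 (edgeR, SE 0.07, adjusted p = 0.153). That of Hdac9 was -0.21, lower in the striatum (edgeR, SE 0.08, adjusted p = 0.279). For Hdac3 the difference was 0.06 (95% interval from -0.05 to 0.16), for Hdac11 0.02 (from -0.16 to 0.20) and for Hdac6 0.14 (from -0.04 to 0.31).

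Marker genes of several cell types moved with the genotype, and their part in the results of the members and of the partner genes below was not tested. Of all genes, 33.3% were called in the cortex and 30.2% in the striatum. Microglial markers were lower in Trrap-FBΔ cortex in 8 of 8 cases and in the striatum in 6 of 8, and summed to between 373 and 421 CPM in control cortex and between 271 and 341 CPM in Trrap-FBΔ cortex. Markers of immature neurons were lower in 7 of 8 and 6 of 8 cases, summing to between 3234 and 4477 CPM in control cortex and between 1659 and 2139 CPM in Trrap-FBΔ cortex, and those of cycling progenitors in 7 of 8 and 5 of 8. Markers of oligodendrocyte precursors were lower in 6 of 6 cases in the cortex (from 572 to 662 CPM in sum in controls and from 458 to 522 CPM in mutants) and in 3 of 6 in the striatum. Of the 8 astrocyte markers, 2 were higher and 2 lower in Trrap-FBΔ cortex, beside 2 and 1 in striatum, and of 8 mature neuron markers, 2 and 3 were lower. Endothelial markers were lower in 7 of 8 cases in the cortex and in 1 of 8 in the striatum (0 to 6 over the alternatives). Of mature oligodendrocyte markers, 7 of 8 were lower in the cortex in edgeR but 3 of 8 in DESeq2, with 0 to 8 over all alternatives, and in the striatum 0 of 8 were called by either tool or at an unadjusted p under 0.05. Markers of excitatory cortical neurons were lower in 5 of 7 cases in Trrap-FBΔ striatum (2 to 6 over the alternatives, and from 262 to 369 CPM in sum, against 353 to 590 CPM in controls) and in 1 of 7 in the cortex. Of 7 inhibitory interneuron markers, 1 was higher in the cortex, and 1 was higher and 1 lower in the striatum, both lost in some alternatives. Of 8 striatal projection neuron markers 0 were called in either tissue (up to 1 and 3 lower over the alternatives). Their median log2 fold changes were -0.30 and -0.55. No marker was at 0 counts throughout a group.

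More members differed between the tissues than between the genotypes. In both genotypes Hdac3, Hdac6, Hdac7, Hdac8 and Hdac11 were higher and Hdac4, Hdac5 and Hdac9 were lower in the striatum than in the cortex, whereas Hdac1 and Hdac2 did not pass the test. That is 8 of 10 in controls, where 44.5% of 19438 genes were called (22.5% higher and 22.0% lower), and 8 of 10 in Trrap-FBΔ mice, where 52.3% were (26.5% higher and 25.9% lower). With upper-quartile normalization the genes called in Trrap-FBΔ mice were 6345 higher and 3912 lower, in place of 5143 and 5031, and the members 5 and 2. The libraries are those of the genotype comparisons, and the cortex and striatum came in part from the same mice. With the mouse as a replicate block, 8 and 8 members were called. The members' median absolute log2 fold change was 0.18 in controls, beside 0.24 over all genes, and 0.35 in Trrap-FBΔ mice, beside 0.27.

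Hdac11 had the largest difference of the family. The 8 cortical libraries held from 126 to 155 CPM and the 8 striatal libraries from 227 to 288 CPM, with no overlap in either genotype. The log2 fold change was 0.92 (SE 0.06, adjusted p = 5.73e-09) in controls and 0.93 (SE 0.06, adjusted p = 2.09e-09) in Trrap-FBΔ mice. Hdac8 followed among the genes higher in the striatum, at 0.37 (SE 0.08, adjusted p = 0.0010) in controls and 0.42 (SE 0.08, adjusted p = 0.0002) in mutants.

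The class IIa genes split. Hdac4 was at 67.5 to 76.2 CPM in control cortex and 45.3 to 52.6 CPM in control striatum (-0.56, SE 0.06, adjusted p = 5.36e-07), and the Trrap-FBΔ groups lay equally far apart (-0.57, SE 0.06, adjusted p = 2.69e-07). Hdac9 was lower in the striatum, at -0.47 (SE 0.06, adjusted p = 3.58e-06) in controls and -0.68 (SE 0.06, adjusted p = 3.08e-08) in mutants. Hdac5 was also lower, at -0.17 in controls (adjusted p = 0.0147) and -0.14 in mutants (adjusted p = 0.0325). In controls the Hdac5 call was lost with upper-quartile normalization (-0.12, adjusted p = 0.0659). In mutants it was lost with that scaling (-0.07, adjusted p = 0.299), with either other filter, and without the cortex library of mouse 57 or 61 or the striatum library of mouse 59 or 60 (adjusted p over 23 alternatives from 0.0093 to 0.299). Hdac7 went the other way, by 0.14 in controls (adjusted p = 0.0272) and 0.38 in mutants (adjusted p = 6.69e-06). Its call in controls was lost with no filter and without the cortex library of control mouse 63 or 64 or of Trrap-FBΔ mouse 60 or 61, or the striatum library of control mouse 58 or 63 (adjusted p over 23 alternatives from 0.0055 to 0.111).

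Hdac3 and Hdac6 were modestly higher in the striatum. For Hdac3 the log2 fold change was 0.15 (adjusted p = 0.0022) in controls, where the cortex held at most 118 CPM and the striatum at least 124 CPM, and 0.21 (adjusted p = 0.0001) in mutants. For Hdac6 it was 0.19 (adjusted p = 0.0139) in controls, whose groups overlapped, and 0.32 (adjusted p = 0.0002) in mutants, whose groups did not. The Hdac6 call in controls was lost without the cortex library of mouse 63 (adjusted p = 0.057) or the striatum library of mouse 58 (0.0662) or 65 (0.063), and its adjusted p ran from 0.002 to 0.0662 over 23 alternatives. Hdac2 had estimates of -0.07 in controls (95% interval from -0.14 to 0.00, adjusted p = 0.11) and -0.03 in mutants (from -0.11 to 0.04). In controls it passed with DESeq2 (-0.08, adjusted p = 0.0288) and without the striatum library of mouse 64 (adjusted p = 0.0346), with a range of up to 0.629. Hdac1 had estimates of 0.07 (from -0.09 to 0.24) and 0.06 (from -0.11 to 0.22).

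**Figure D4:**
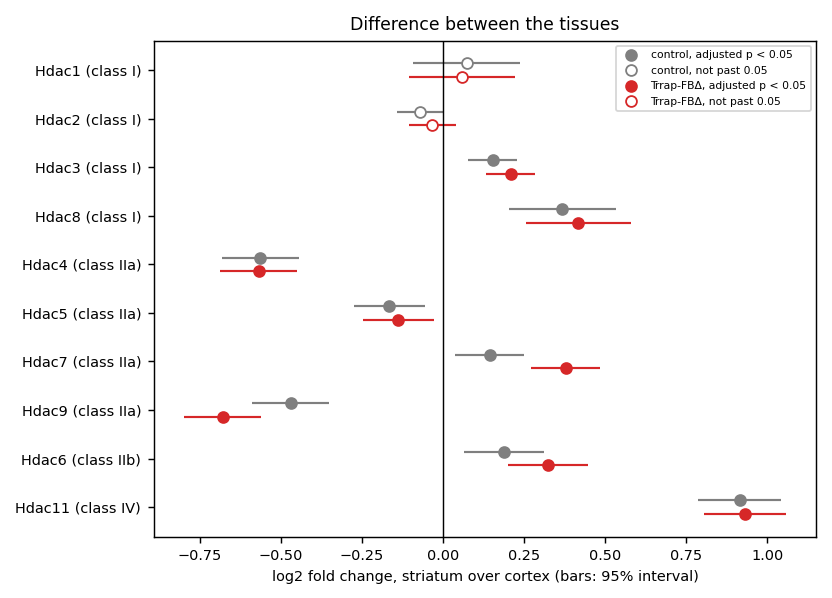
Log2 fold change of striatum over cortex for each deacetylase gene (horizontal axis) with its 95% interval, in control (grey) and Trrap-FBΔ mice (red), with filled points for an adjusted p under 0.05. Hdac11 lies farthest to the right (0.92 and 0.93), and Hdac4 and Hdac9 lie to the left in both genotypes.

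The groups of the 2 tissues did not overlap for 6 members in controls (Hdac3, Hdac4, Hdac5, Hdac8, Hdac9 and Hdac11, beside 37.5% of all genes) and for 8 in Trrap-FBΔ mice (all but Hdac1 and Hdac5, beside 49.6%). Marker genes of several cell types also differed between the tissues. Those of mature oligodendrocytes summed to between 1816 and 3211 CPM in control cortex and between 3228 and 9588 CPM in control striatum. Their median log2 fold change was 1.33 in controls and 1.79 in mutants. Excitatory cortical neuron markers went the opposite way, from 1539 to 1943 CPM down to 353 to 590 CPM in controls, with medians of -1.93 and -2.66. In controls oligodendrocyte precursor markers were higher in the striatum in 6 of 6 cases and astrocyte markers in 4 of 8, with 1 lower. Immature neuron markers were lower in 7 of 8 cases, mature neuron markers in 6 of 8, with 1 higher, and microglial markers in 5 of 8. Of all genes, 44.5% were called. The part of these markers in the differences of Hdac11, Hdac4 and the other members was not tested.

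Hdac6 and Hdac8 are on the X chromosome, and no difference by sex was found for any member. With genotype in the model, 0 of 10 members passed the edgeR test in either tissue, 0 had an unadjusted p under 0.05 and 0 were called by DESeq2, beside 0.0438% and 0.0477% of genes called. For Hdac6 the log2 difference of male minus female was 0.03 (95% interval from -0.11 to 0.17) in the cortex and 0.07 (-0.09 to 0.23) in the striatum. For Hdac8 it was 0.05 (-0.12 to 0.23) and 0.13 (-0.09 to 0.35).

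The partners of the deacetylases were described through 11 lists of 93 genes. In the cortex 9 were higher and 20 lower in Trrap-FBΔ mice, 31.5% of the 92 tested beside a background of 33.3%. In the striatum 14 were higher and 16 lower, 32.3% of 93 beside 30.2%. The counts of the single lists below rest on few genes. They stand beside 15.7% of all genes called higher and 17.6% lower in the cortex. In the striatum these shares were 14.4% and 15.8%. Of the related deacetylases, Hdac10 was lower in the cortex and Sirt6 was higher in the striatum, 1 of 8 each. The Hdac10 call was lost without Trrap-FBΔ mouse 59 (adjusted p = 0.0556) or 60 (0.059), with a range from 0.0109 to 0.059 over 16 alternatives.

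The 14-3-3 proteins, which hold phosphorylated class IIa deacetylases in the cytoplasm, had 4 lower genes and 0 higher ones in each tissue (of 6 tested cortical and 7 tested striatal values). Of all genes, 17.6% were called lower in the cortex and 15.8% in the striatum. The median log2 fold change of the 14-3-3 list was -0.40 and -0.24. DESeq2 also called 0 higher in either tissue, with 5 and 4 lower, and 5 and 4 genes of the list had an unadjusted p under 0.05. Ywhag fell from 1607 ± 82 to 1071 ± 74 CPM in the cortex (SD, n = 4, log2 fold change -0.59, adjusted p = 0.0001) and from 1275 ± 119 to 931 ± 41 CPM in the striatum (-0.45, adjusted p = 0.002). Ywhaq fell by 0.59 and by 0.44 on the log2 scale, and Ywhah by 0.52 and by 0.49. Ywhaz was lower as well, at -0.27 and -0.24.

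Of the kinases that phosphorylate class IIa deacetylases, 5 of 10 went down and 1 up in the cortex, beside 3 down and 1 up in striatum. Camk4, a nuclear calcium-dependent kinase of neurons, fell from 636 ± 143 to 432 ± 49 CPM in the cortex (log2 fold change -0.56, adjusted p = 0.0088) and from 316 ± 75 to 186 ± 10 CPM in the striatum (-0.76, adjusted p = 0.0028). Camk1d was lower at -0.31 and -0.46. Sik3, a salt-inducible kinase, was higher at 0.22 (adjusted p = 0.0461) and 0.28 (adjusted p = 0.0292). Among the 4 Mef2 factors, the DNA-binding partners of the class, Mef2c was at 1406 ± 128 CPM in control cortex and 1201 ± 19 CPM in Trrap-FBΔ cortex (-0.23, adjusted p = 0.0313), and at 262 ± 51 and 147 ± 33 CPM in the striatum (-0.83, adjusted p = 0.0053). Mef2a was lower at -0.20 and -0.30. Markers of excitatory cortical neurons were also lower in Trrap-FBΔ striatum in 5 of 7 cases, and their part in these changes was not tested. Mef2b was higher in the striatum at 0.76 (adjusted p = 0.0221), a call lost with DESeq2 (0.0638) and without control mouse 63 (0.0513) or 65 (0.0545) or Trrap-FBΔ mouse 59 (0.0531) or 61 (0.0545).

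Of the class I complexes, the NCoR and SMRT list of Hdac3 held the largest change. Coro2a, a coronin found with that complex, fell from 57.9 ± 4.6 to 28.8 ± 1.8 CPM in the cortex (log2 fold change -1.01, adjusted p = 5.77e-06) and from 42.2 ± 3.9 to 26.1 ± 2.0 CPM in the striatum (-0.69, adjusted p = 0.0003). Tbl1x, a WD-repeat subunit, was lower at -0.40 (adjusted p = 8.71e-05) and -0.13 (adjusted p = 0.0472). Of the 6 genes of this list, cortex calls were 2 down, and striatum calls 3 down and 1 up. Of the 13 genes of the Sin3 list, 4 were called in the cortex (2 up and 2 down), and 3 in the striatum (1 up and 2 down). Ing1, a reader of methylated histone H3, was lower at -0.37 and -0.30, and Arid4a at -0.21 in both.

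The NuRD list had 1 of 12 genes higher in the cortex and 2 in the striatum, Mta1 being higher in both (0.23, adjusted p = 0.0059, and 0.26, adjusted p = 0.0085). No NuRD gene was called lower by the main edgeR fit or by DESeq2 in either tissue, where 3 genes each had an unadjusted p under 0.05. Over the alternatives 0 to 1 was called lower in the cortex. Of the 10 genes of the CoREST list, 1 was higher and 2 were lower in the cortex. In the striatum 2 were higher and 1 was lower, Rcor3 being lower in both tissues (-0.23 and -0.19). Dnttip1, the scaffold of MiDAC, was higher at 0.24 and 0.19, the only one of its 3 genes called.

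The opposing acetyltransferases gave 1 higher and 2 lower of 13 genes for cortex, beside 1 and 1 for striatum. Atat1, the alpha-tubulin acetyltransferase that opposes Hdac6, was lower at -0.40 (SE 0.05, adjusted p = 0.0002) in the cortex, where Hdac6 was also lower, and at -0.17 (SE 0.06, adjusted p = 0.0433) in the striatum. Kat7 was higher at 0.18 (adjusted p = 0.0338) and 0.33 (adjusted p = 0.0049). Of the acetyl-lysine readers 2 of 7 were higher in the cortex and 3 in the striatum, Brpf1 at 0.24 and 0.20 and Brd7 at 0.22 and 0.20, and 0 were called lower by edgeR or DESeq2.

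Several of these calls were lost in alternative fits. In the striatum those of Arid4a, Rcor3, Tbl1x, Dnttip1, Sik3 and Atat1 were each lost without control mouse 64, those of Arid4a, Tbl1x, Dnttip1 and Atat1 also without control mouse 65, and that of Atat1 without mouse 58. They were also lost without Trrap-FBΔ mouse 57 (all but Arid4a), 59 (all but Rcor3), 60 (Arid4a, Rcor3, Tbl1x and Atat1) or 61 (all but Atat1). Other settings ended them too: that of Tbl1x was lost with RLE and upper-quartile normalization, limma-voom, both other filters and sex as a covariate, 12 of 16 alternatives in all. That of Atat1 was lost with upper-quartile normalization, no filter and sex as a covariate, that of Dnttip1 with no filter and sex as a covariate, that of Arid4a with sex as a covariate and that of Rcor3 with no filter. The highest adjusted p of the 6 genes over 16 alternatives was 0.0832, 0.0705, 0.169, 0.111, 0.0814 and 0.124, in that order. In the cortex those of Mef2c, Sik3 and Kat7 were lost in fits that left out control mouse 55 or 64 or Trrap-FBΔ mouse 59, 60 or 61, those of Sik3 and Kat7 also without control mouse 63, and that of Arid4a without Trrap-FBΔ mouse 60. Without single libraries the highest adjusted p of these 4 genes was 0.0718, 0.115, 0.0845 and 0.0506. With all 16 libraries in 1 fit, the calls of Mef2c (adjusted p = 0.234) and Sik3 (0.067) in the cortex were lost as well.

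**Figure D5:**
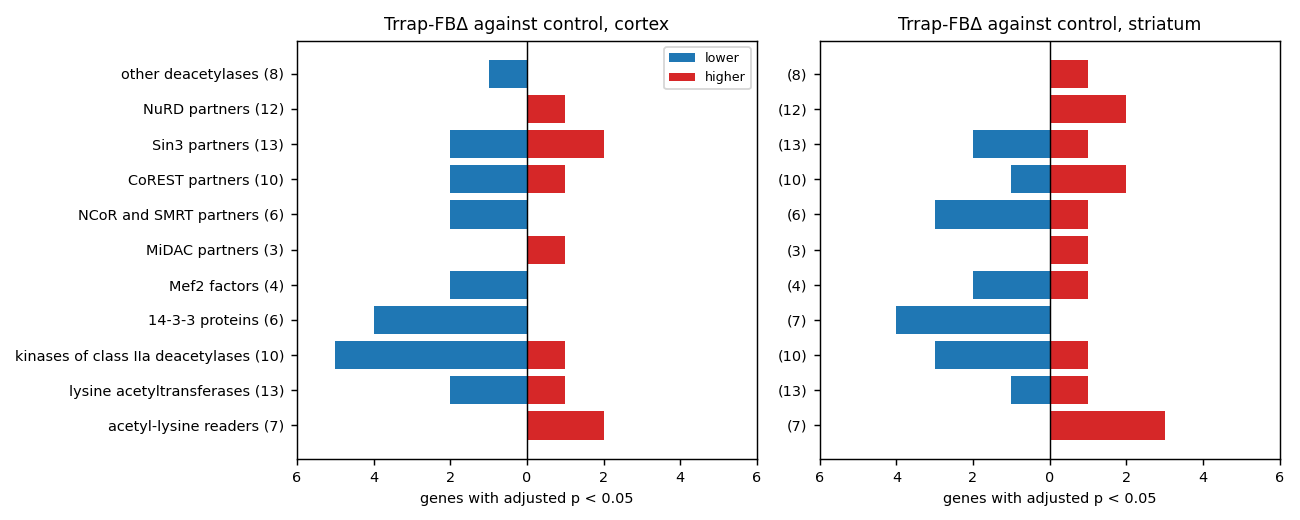
Number of genes of each partner list with an adjusted p under 0.05 in Trrap-FBΔ against control cortex and striatum (horizontal axis, lower to the left in blue and higher to the right in red), with the number tested in brackets. The 14-3-3 list has 4 lower genes and 0 higher in each tissue, and the acetyl-lysine readers have 2 and 3 higher genes and 0 lower. Of all genes, 15.7% were called higher and 17.6% lower in the cortex, and 14.4% and 15.8% in the striatum.

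Between the tissues 7 partners were higher and 38 lower in the striatum of controls, 48.4% of 93 beside the 44.5% above, and 15 higher and 40 lower in that of Trrap-FBΔ mice, 59.1% beside 52.3%. Of the 4 Mef2 factors 3 were lower in each genotype, by edgeR and by DESeq2. The remaining one, Mef2b, was called higher in the striatum of Trrap-FBΔ mice by edgeR (0.77). DESeq2 also called 1 higher there, with 0 to 1 over the alternatives. In the difference of the genotype effect between tissues, 1 of the 93 partners was called, Tbl1x, whose estimate was higher in the striatum by 0.27 (SE 0.06, adjusted p = 0.0451). With the mouse as a replicate block its adjusted p was 0.0749, and the call was lost in 17 of 23 alternatives, among them 14 of the 16 that left out 1 library, the exceptions being the cortex library of Trrap-FBΔ mouse 61 and the striatum library of control mouse 65 (adjusted p from 0.0007 to 0.117).

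The gene with the most similar profile to a member was found by Pearson's r of log2 CPM over the 16 libraries, among 15392 genes. The libraries fall into the 2 tissues and share their depth and composition, so the coefficients are descriptions. For Hdac11 it was Nova1, a neuronal splicing regulator (r = 0.99, with 0.88 within the cortex and 0.95 within the striatum). For Hdac4 it was Tanc2, a postsynaptic scaffold (0.99, with 0.93 and 0.95), and for Hdac6 Cdk18 (0.98, with 0.97 and 0.92). For Hdac9 it was Kcnj3, a potassium channel subunit (0.98, but 0.51 within the cortex and 0.93 within the striatum). For Hdac3 it was Arl2, a small GTPase of the tubulin folding pathway (0.97, with 0.93 and 0.98). The nearest genes of Hdac7 (Tle2, 0.96, with 0.83 and 0.85), Hdac5 (Elac2, 0.94, with 0.82 and 0.93), Hdac1 (Gm17244, 0.89, with 0.86 and 0.93) and Hdac2 (Gucy1a1, 0.88, with 0.83 and 0.90) had lower coefficients over all libraries.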

How the data were processed

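RNA from cortex and striatum was sequenced as stranded single-end reads of 51 bases. The authors aligned them to GRCm38 with STAR 2.5.4b and counted uniquely mapped reads per Ensembl 92 gene with featureCounts 1.5.0 in its reverse-stranded mode, and the values they deposited are raw counts. The submitters' processing notes also name bcl2fastq 1.8.4. Symbols and coordinates came from Ensembl 96 on the same build, where 53706 of 53801 identifiers matched, and promoter sequences from RefSeq. Groups came from the sample labels.

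Genotype was tested within each tissue, and the interaction and tissue contrasts over all 16 libraries, by edgeR 4.0.16 (quasi-likelihood, in R 4.3.3) after filterByExpr and TMM normalization, with Benjamini-Hochberg adjustment over all genes and a threshold of 0.05. The authors used an earlier release of DESeq2. DESeq2 1.42.0 and limma-voom 3.58.1 were alternatives, beside other scalings, filters, sex as a covariate and leaving out single libraries. The fits were tested on simulated data. Members and lists were chosen with earlier results of these data known. Partner genes named are those called the same way in both tissues, up to 3 a list by the mean absolute log2 fold change, and Ywhaz, Hdac10, Sirt6 and Mef2b were named after their values were seen. Some genes that this rule or the likeness measure would name are not reported here. For likeness, genes of at least 1 CPM on average and log2(CPM + 0.5) were used. Same-numbered samples are the same animal, so that the numbers pair them. Deviations from the group means correlated at 0.0845 to 0.244 in the 7 pairs (6 over 0.1), and at -0.173 to 0.123 between different mice (2 of 25 over 0.1). The ranges overlap, and taking deviations from shared group means makes the 2 sets of coefficients depend on each other.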

Additional observations from a re-analysis of the deposited data

How the results depend on the processing

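The 3 members called in the cortex became 2 with no filter and 2 to 3 without single libraries. The 2 called in the striatum became 1 with no filter on low counts, 1 with sex as a covariate and 4 with all 16 libraries in 1 fit, 3 with DESeq2 (2 higher, 1 lower), 3 with upper-quartile normalization (3 higher, 0 lower, the call of Hdac9 being lost), and 1 to 3 without single libraries, with 1 without Trrap-FBΔ mouse 57, 59 or 61. The order of levels kept 5 of 10 ranks with the longest transcript. The paired fit, with the mouse as a replicate block, left 0 interaction calls and 8 and 8 tissue calls among the members, changed the call of no member, and could not be run for the genotype within a tissue, where each mouse gives 1 library. Signs turned only for estimates near 0: in the interaction, Hdac1 to 0.011 and Hdac4 to 0.021 with upper-quartile normalization, Hdac4 to 0.003 with no filter, 0.032 with the replicate block and 0.012 with sex as a covariate, and Hdac2 between tissues in mutants to 0.04 with upper-quartile normalization. Without single libraries, estimates ran from -0.049 to 0.025 for Hdac5 and from -0.002 to 0.055 for Hdac9 in the cortex, and from -0.022 to 0.027 for Hdac5 in the striatum. In the interaction they ran from -0.084 to 0.036 for Hdac1, -0.041 to 0.03 for Hdac4, -0.009 to 0.065 for Hdac5 and -0.029 to 0.081 for Hdac11. For the sex difference of Hdac6 they ran from -0.016 to 0.103 in the cortex and from -0.047 to 0.183 in the striatum. Over all genes, the interaction called 85 genes, 415 with DESeq2, 219 with the replicate block and 195 with no filter. The causes were not tested.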
